A study of Danio rerio with 16 samples.

Results

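The core splicing factor genes described here were the rows of the zebrafish count tables whose gene symbol begins with srsf, tra2, u2af, sf3a, sf3b, snrp, prpf or hnrnp, in lower case, and whose mean over the 16 libraries was at least 1 CPM (read counts scaled to a common library total). There were 72 such genes among the 31452 genes of the tables, and no matching gene fell under the minimum. The lowest was a row of hnrnpa0a (ENSDARG00000086497) at 2.68 CPM, and 2 of the 72 averaged under 10 CPM. All 72 passed the filter on low counts and were tested. No measured difference between groups entered the choice. By family there were 14 srsf, 2 tra2, 3 u2af, 3 sf3a, 7 sf3b, 10 snrp, 14 prpf and 19 hnrnp genes, on 23 chromosomes. The 72 rows carry 67 symbols, because hnrnpa0a, hnrnpa0l, prpf3, prpf4 and sf3b3 each stand on 2 rows. How the authors' counting divided reads between such rows is not given in the sources used here, so these 10 rows are named with their gene ID and their separate values are uncertain.

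The RNA came from whole embryos, ABTL in genetic background and 4 days old after fertilization. The caudal aorta of every embryo was injected with 1 nl of either human recombinant insulin or phosphate-buffered saline (PBS). The 4 groups of 4 libraries were insulin at 0.5 hours post injection (hpi), PBS at 0.5 hpi, insulin at 4 hpi and PBS at 4 hpi. Each library was made from 10 pooled embryos, so it averages over animals, and the insulin concentration is not given in the sources used here. In RNA of whole embryos, fewer cells of a type and less RNA per cell cannot be told apart. Nothing in the labels says that libraries of a group came from separate clutches, and the p-values measure the spread between these pools.

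Introns are removed from nuclear pre-mRNA by the spliceosome, a machine of small nuclear ribonucleoproteins (snRNPs) and many further proteins. SR proteins (srsf genes) and the related Tra2 proteins bind exons and promote their recognition, U2AF and the SF3A and SF3B subunits of the U2 snRNP mark the 3' splice site and the branch point, Sm proteins (several snrp genes) form the ring on which snRNPs are built, and most prpf products act in the later snRNP complexes. The hnRNP proteins coat nascent RNA and often restrain the exons that SR proteins promote. Several SR proteins and hnRNPs are known, in mammals, to adjust their own mRNA through exons that send it to nonsense-mediated decay.

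The libraries held 6535173 to 9628705 reads in genes. A group of 4 libraries stood apart from the other 12: insulin replicate 1 of the 4 hpi group, insulin replicates 1 and 2 of the 0.5 hpi group and PBS replicate 1 of the 0.5 hpi group. In these si:dkey-15h8.1 and wdr90, which are no splicing factor genes, each had under 10 CPM. PBS replicates 2 and 3 at 0.5 hpi were almost identical by the count of genes that differ. In them 89 of 22287 genes and 0 of the 72 splicing factor genes differed beyond counting error, against 710 to 9655 genes for the other pairs of libraries within a group. The mean chi-square per gene did not set them apart, at 2.74 beside 2.40 to 26.8 for the other pairs. Whether PBS replicates 2 and 3 are separate pools was not settled, and they enter as 2 libraries unless their sum is named. Counts that changed without the 4 libraries, or with the near-identical libraries summed, are given later in the text and not beside every gene. Genes of muscle, neurons, lens and photoreceptors, liver, exocrine pancreas and blood were all detected, as the whole-embryo label requires.

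Together the 72 genes took more of the reads in insulin libraries at both times. At 0.5 hpi their share was 0.744% to 0.890% in the insulin libraries and 0.639% to 0.741% in the PBS libraries. At 4 hpi it was 0.763% to 0.835% in the insulin libraries and 0.637% to 0.698% in the PBS libraries. The groups did not overlap at either time, although at 0.5 hpi the lowest insulin library (replicate 2) and the highest PBS library (replicate 1), both among the 4 that stand apart, were nearly level. A share of reads is set by the most abundant members, so the median gene was also followed. On the log2 scale, the median deviation of the 72 genes from their means over all libraries was 0.08 to 0.23 in insulin and -0.27 to 0.11 in PBS libraries at 0.5 hpi. It was -0.00 to 0.23 in insulin and -0.25 to -0.15 in PBS libraries at 4 hpi. By this measure the groups overlapped at 0.5 hpi, where PBS replicate 1 lay at 0.11 and PBS replicate 4 at -0.27, and not at 4 hpi. The same median over all genes tested stayed within 0.03 of 0 in every library. The scaling between libraries (TMM factors) holds most genes near level, so that outcome was largely fixed in advance.

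**Figure D1:**
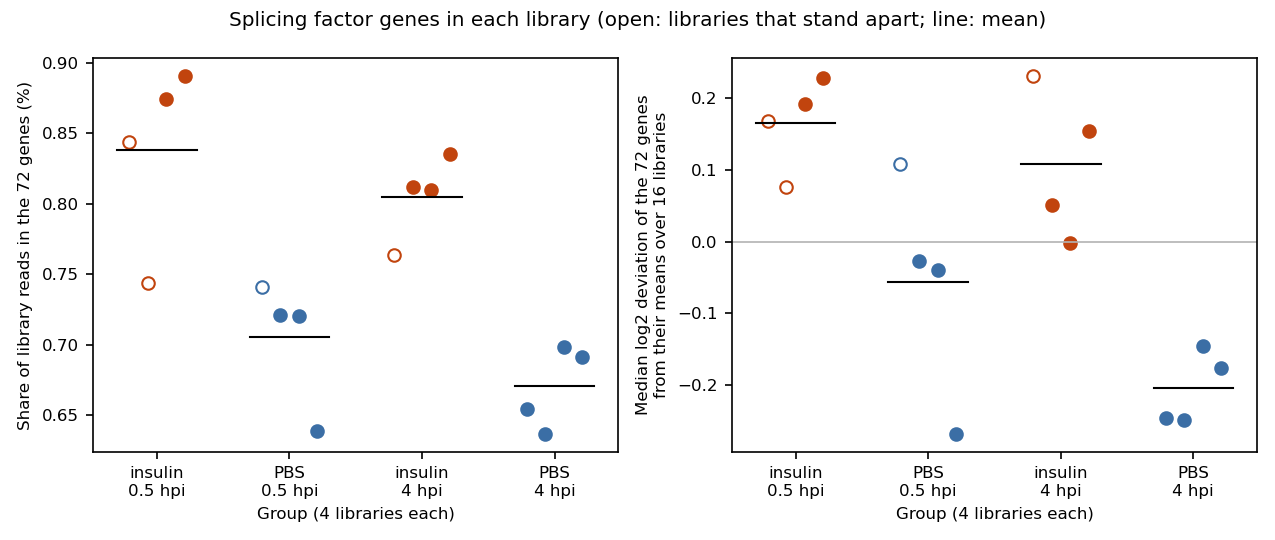
Share of library reads in the 72 splicing factor genes (left, percent) and median log2 deviation of these genes from their own means over 16 libraries (right), for each library by group, with the group mean as a line and the 4 libraries that stand apart as open points. All 4 insulin libraries lie above all 4 PBS libraries at 4 hpi in both panels, with shares of 0.763% to 0.835% against 0.637% to 0.698%.

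Insulin against PBS at 4 hpi asks what differs hours after the injection. Of the 72 splicing factor genes, 31 were higher in insulin and 0 lower at an edgeR adjusted p under 0.05, against 14% of all 21650 tested genes higher and 14.6% lower. At an unadjusted p under 0.05 the counts were 39 higher and 1 lower (20.8% and 20.3% of tested genes), DESeq2 called 32 higher and 0 lower (14.2% and 15% of tested genes), and limma voom 30 higher and 0 lower (13.2% and 15.1%). The log2 change was above 0 for 65 of the 72, with a median of 0.33 and a range of -0.23 to 0.95, beside a median of 0.01 over all tested genes. In 40 of the 72 all 4 insulin libraries lay above all 4 PBS libraries, and in 0 below, against 16.3% and 17.2% of tested genes. The families differed in how many members passed: 10 of 14 srsf genes, both tra2 genes, 5 of 7 sf3b, 4 of 10 snrp, 7 of 19 hnrnp, 2 of 14 prpf, 1 of 3 u2af and 0 of 3 sf3a genes.

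**Figure D2:**
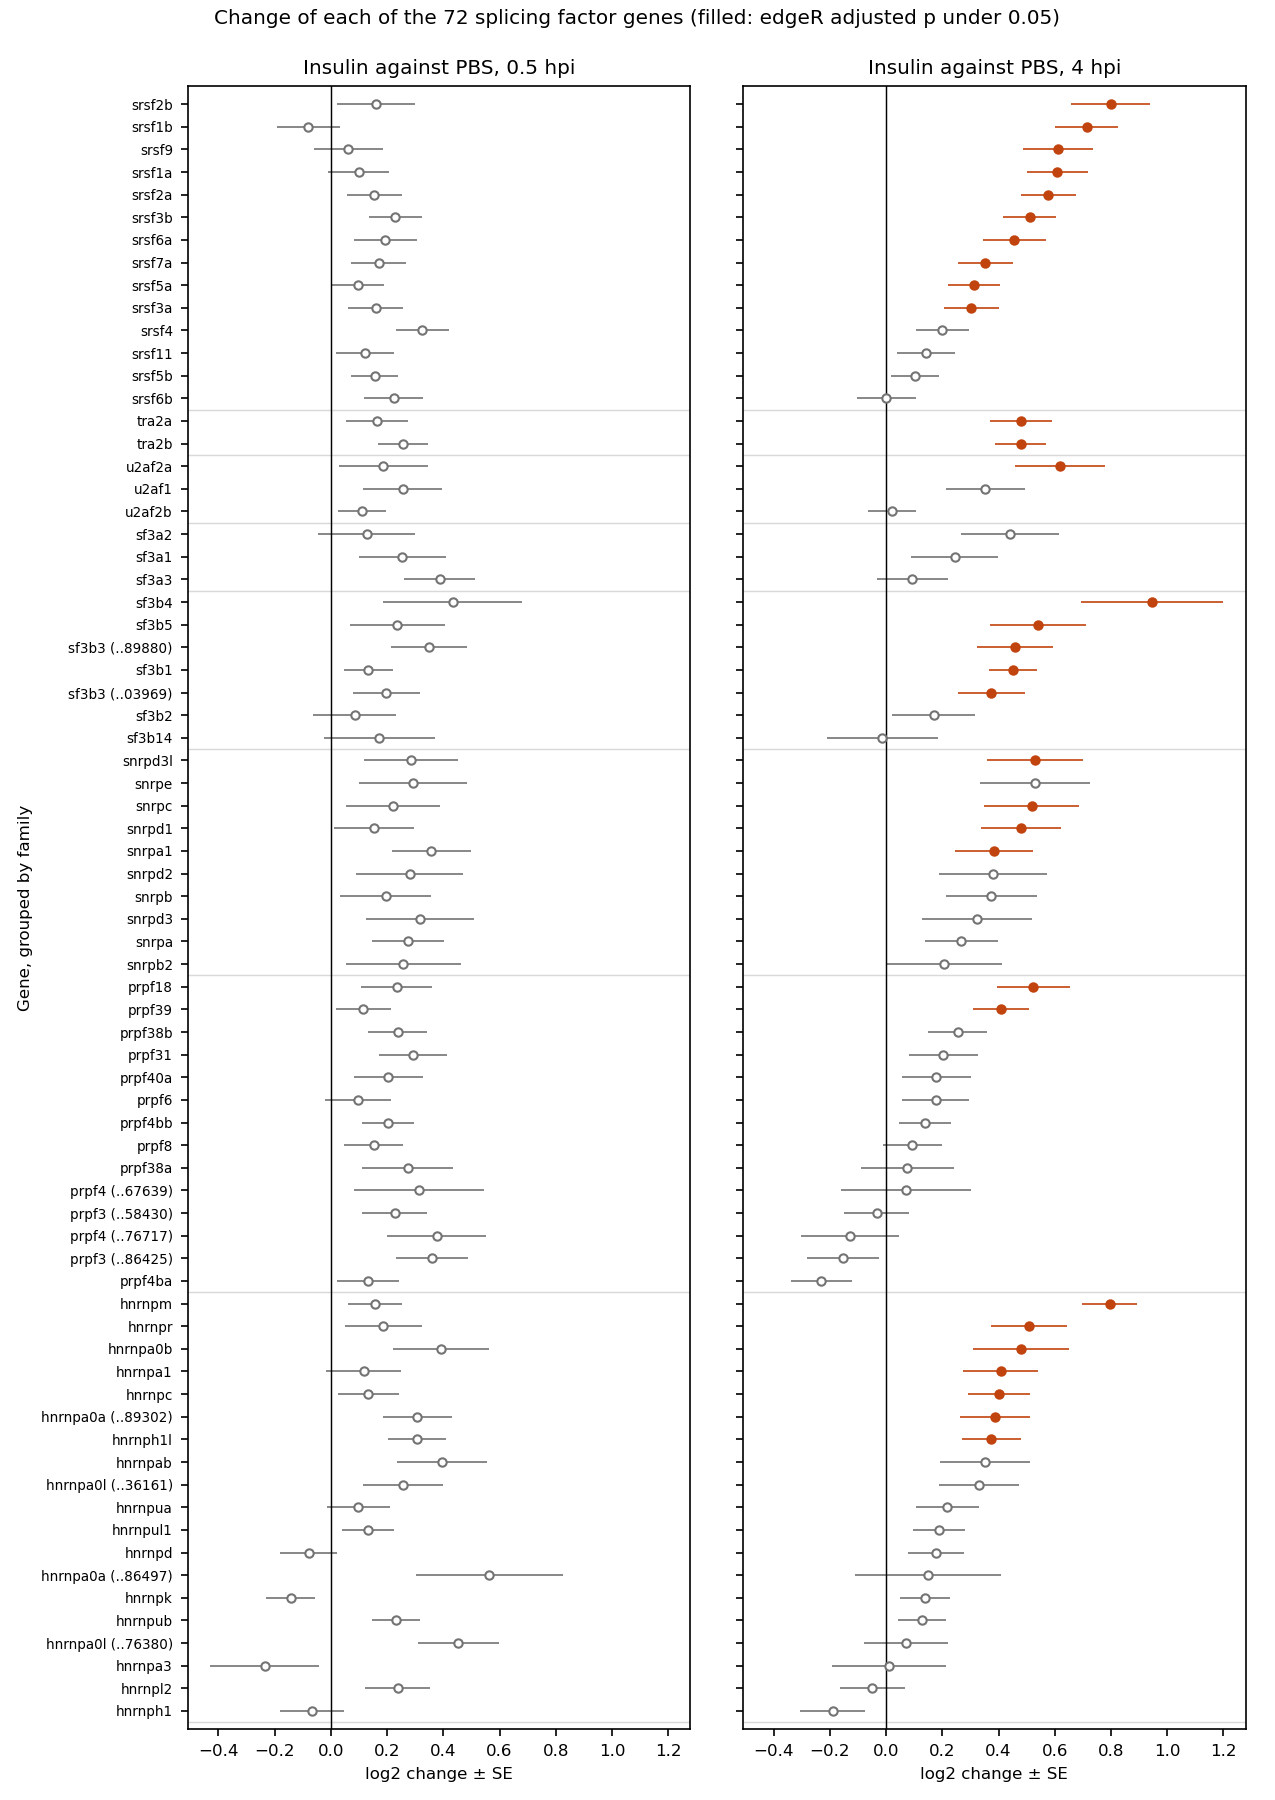
Log2 change of each of the 72 splicing factor genes in insulin against PBS, with the standard error, at 0.5 hpi (left) and 4 hpi (right), grouped by family, with genes that passed the test filled. No gene passed at 0.5 hpi and 31 passed at 4 hpi, all to the right of 0.

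Of the 14 SR protein genes 10 passed. All 14 had a change above 0 at 4 hpi, with a median of 0.40. Of the founding members of the family, srsf1 (known in mammals as SF2 or ASF) is present as the copies srsf1a and srsf1b, and srsf2 (SC35) as srsf2a and srsf2b. In the insulin libraries at 4 hpi srsf1b (chromosome 21) measured 127, 146, 135 and 138 CPM, against 85.1, 82.8, 80.4 and 84.3 CPM in the PBS libraries. srsf1a (chromosome 15) measured 201, 164, 159 and 183 CPM in insulin, against 119, 117, 119 and 110.3 CPM in PBS. For both copies every insulin library lay well above every PBS library, and the PBS libraries were tightly grouped. The log2 change was 0.71 (SE 0.11, adjusted p = 0.000135) for srsf1b and 0.61 (SE 0.11, adjusted p = 0.000466) for srsf1a.

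srsf2a (chromosome 12) had 216, 208, 214 and 231 CPM in insulin libraries at 4 hpi, against 129.8, 137, 156 and 160.1 CPM in PBS libraries. Its copy srsf2b (chromosome 3) had 29.4, 34.1, 28.5 and 37.7 CPM in insulin, against 17.7, 19.9, 17.2 and 19.7 CPM in PBS. Again the groups were apart, and srsf2b held the largest change of the family, 0.80 (SE 0.14, adjusted p = 0.000378), beside 0.58 (SE 0.10, adjusted p = 0.000287) for srsf2a. srsf3b (chromosome 22), whose human counterpart SRSF3 also links splicing to mRNA export, had 223, 214, 207 and 243 CPM in insulin, against 139, 151, 167 and 165 CPM in PBS (change 0.51, SE 0.09, adjusted p = 0.000591). srsf9 (chromosome 10) averaged 45.1 ± 6.53 CPM in insulin and 29.5 ± 3.57 CPM in PBS (SD, n = 4 each; change 0.61, adjusted p = 0.00133). srsf6a, srsf7a, srsf5a and srsf3a passed with changes of 0.46, 0.35, 0.31 and 0.30. The 4 members that did not pass with 16 libraries were srsf4 (0.20), srsf11 (0.14), srsf5b (0.10) and srsf6b (0.00). The highest mean CPM of the family was that of srsf11 (CPM is not corrected for gene length), at 377 ± 32.7 CPM in insulin and 341 ± 24.9 CPM in PBS.

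Both tra2 genes, which encode SR-like activators of exon inclusion, rose by nearly the same amount. tra2b (chromosome 9) had 60.6, 55.9, 50.4 and 64.1 CPM in insulin libraries at 4 hpi, against 39.5, 41.4, 42.7 and 42.1 CPM in PBS libraries. tra2a (chromosome 19) had 106, 97.3, 94.0 and 101 CPM in insulin, against 69.7, 71.2, 72.5 and 71.5 CPM in PBS. The groups were well separated for both, and the change was 0.48 for each (SE 0.09, adjusted p = 0.000657 for tra2b; SE 0.11, adjusted p = 0.00338 for tra2a). For U2AF, which reads the polypyrimidine tract and the AG at the end of the intron, the copies of the large subunit gave unlike values. u2af2a (chromosome 16) had 66.8, 42.1, 42.1 and 51.3 CPM in insulin, against 33.5, 32.3, 29.9 and 35.9 CPM in PBS (change 0.62, SE 0.16, adjusted p = 0.00752). u2af2b (chromosome 19) had 126, 114, 116 and 118 CPM in insulin, against 119, 110.9, 118 and 119.9 CPM in PBS, so that its groups overlapped (change 0.02, SE 0.09, adjusted p = 0.87). The small subunit gene u2af1 had a change of 0.35 and did not pass (adjusted p = 0.0666).

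**Figure D3:**
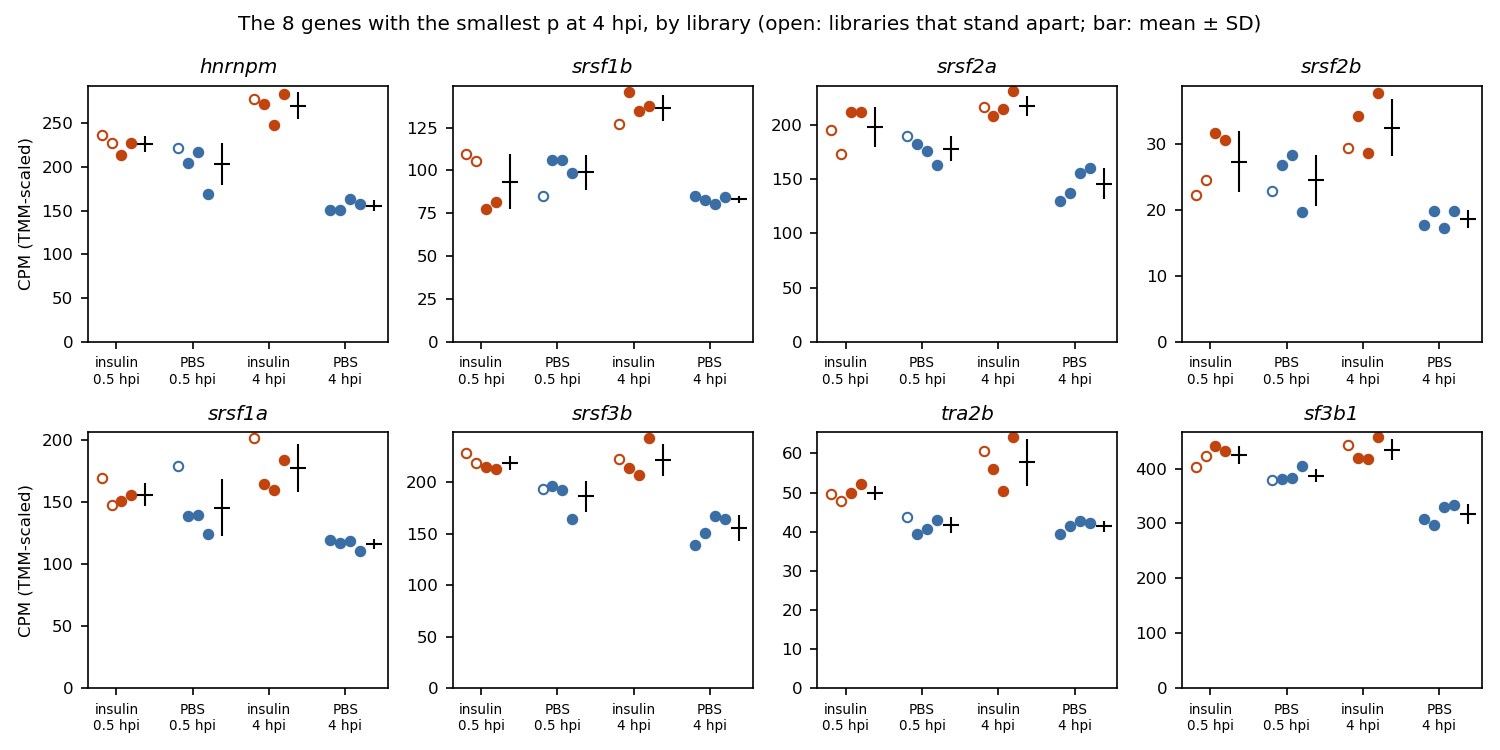
CPM in each library (vertical axis from 0, TMM-scaled) of the 8 splicing factor genes with the smallest p at 4 hpi, by group, with mean ± SD beside the points and the libraries that stand apart as open points. At 4 hpi every insulin point lies above every PBS point in all 8 panels, and for srsf1b the groups at 0.5 hpi lie at 77.4 to 109.6 CPM in insulin and 84.8 to 106 CPM in PBS.

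Among the genes of the U2 snRNP subcomplexes, 5 of 7 sf3b and 0 of 3 sf3a genes passed with 16 libraries. sf3b1 (chromosome 9), the large subunit that clasps the branch point helix, had 442, 419.8, 418 and 458 CPM in insulin libraries at 4 hpi, against 307, 298, 331 and 335 CPM in PBS libraries. The groups were far apart relative to their spread (change 0.45, SE 0.09, adjusted p = 0.000836). sf3b4 (chromosome 19), whose protein contacts RNA near the branch point, had the largest change of all 72 genes, a fact noted after its values were seen. It measured 37.5, 33.7, 44.4 and 37.9 CPM in insulin, against 18.4, 19.7, 22.7 and 18.8 CPM in PBS, with no overlap (change 0.95, SE 0.25, adjusted p = 0.0111). sf3b5 (0.54) and the rows of sf3b3 on chromosome 18 (0.46 for ENSDARG00000089880 and 0.37 for ENSDARG00000003969) also passed, and sf3b2 (0.17) and sf3b14 (-0.01) did not. The SF3A genes had changes of 0.44 (sf3a2), 0.24 (sf3a1) and 0.09 (sf3a3). sf3a2 (chromosome 2) came closest, with 44.7, 33.1, 28.2 and 30.9 CPM in insulin, against 19.4, 26.4, 27.5 and 27.4 CPM in PBS (adjusted p = 0.0627). Whether the complexes differ from each other was not tested.

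The 10 snrp genes all had changes above 0, from 0.21 to 0.53, with a median of 0.38, and 4 passed. snrpd1 (chromosome 19), an Sm ring protein, had 57.4, 39.1, 37.6 and 54.2 CPM in insulin libraries at 4 hpi, against 30.2, 33.0, 35.4 and 36.0 CPM in PBS libraries. Insulin replicates 2 and 3 lay just above the PBS range, and the change was 0.48 (SE 0.14, adjusted p = 0.0175). The others that passed were the Sm gene snrpd3l (0.53), the U1 snRNP gene snrpc (0.52) and the U2 snRNP gene snrpa1 (0.38, adjusted p = 0.0452), whose groups overlapped. snrpb (chromosome 6), the Sm gene with the highest mean CPM here, had 127, 101, 97.1 and 121 CPM in insulin, against 81.3, 85.2, 90.6 and 87.2 CPM in PBS. Its groups were apart, yet with 16 libraries it did not pass (change 0.37, SE 0.16, adjusted p = 0.0903).

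Of the 14 prpf genes 2 passed, a share near the 14% of all tested genes that were higher at 4 hpi. prpf39 (chromosome 20), which encodes a U1 snRNP-associated factor, had 161, 153, 139 and 152 CPM in insulin libraries at 4 hpi, against 102, 112, 116 and 125 CPM in PBS libraries (change 0.41, SE 0.10, adjusted p = 0.00455). prpf18 (chromosome 18), a factor of the second catalytic step, averaged 18.9 ± 2.63 CPM in insulin and 13.2 ± 1.77 CPM in PBS (SD, n = 4 each; change 0.52, SE 0.13, adjusted p = 0.00568). The remaining 12 ranged from -0.23 (prpf4ba) to 0.25 (prpf38b). prpf8 (chromosome 15), the scaffold of the catalytic core, had 266, 217, 227 and 220.5 CPM in insulin, against 196, 217, 233 and 225 CPM in PBS. These groups overlapped, and the change was 0.09 (SE 0.11, adjusted p = 0.533). Genes of the U4/U6.U5 tri-snRNP did not pass either, with prpf31 at 0.20, prpf6 at 0.18, the prpf3 rows at -0.15 and -0.03, and the prpf4 rows at -0.13 and 0.07.

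Of the 19 hnrnp genes, hnrnpm (chromosome 22) had the smallest p of all splicing factor genes. It measured 278, 272, 248 and 283 CPM in insulin libraries at 4 hpi, against 151, 150.2, 163 and 158 CPM in PBS libraries. The insulin libraries stood far above the PBS libraries (change 0.79, SE 0.10, adjusted p = 1.09e-05). hnrnpr (0.51), hnrnpa0b (0.48), hnrnpa1 (0.41), hnrnpc (0.40), hnrnpa0a (ENSDARG00000089302, 0.39) and hnrnph1l (0.37) passed as well, and for hnrnpa1 the groups overlapped. hnrnpab (chromosome 14), which had the highest mean CPM of the family, had 592, 594, 541 and 606 CPM in insulin, against 466, 425, 473 and 462 CPM in PBS. The groups were apart, but with 16 libraries it did not pass (change 0.35, SE 0.16, adjusted p = 0.102). The 3 lowest changes were those of hnrnpa3 (0.01), hnrnpl2 (-0.05) and hnrnph1 (-0.19).

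Leaving out each library of these groups in turn, 19 of the 31 genes passed every time. None of the snrp genes did, with snrpc, snrpd1, snrpd3l and snrpa1 each lost at least once. Also lost at least once were sf3b5, both sf3b3 rows, hnrnpa0b, hnrnpa1, hnrnpa0a (ENSDARG00000089302), srsf3a and srsf5a. The share of all genes called at 4 hpi that pass every time was not counted. Without the 4 libraries that stand apart, 38 genes were higher and 0 lower, against 17.4% and 17.8% of the genes tested there, and 30 of the 31 were among them, the exception being snrpa1 (adjusted p = 0.0676). With the near-identical PBS libraries summed, 29 of the 31 passed, and snrpa1 (adjusted p = 0.0553) and hnrnpa0b (adjusted p = 0.0508) did not. Scaling by library totals gave 26 splicing factor genes higher and 0 lower, against 2310 and 3643 of 21650 tested genes. The median change was then 0.25, beside -0.05 over all tested genes. The column headers name sequencing lane 5 for 2 insulin and 3 PBS libraries at 4 hpi. Among these alone 12 splicing factor genes were higher and 0 lower, against 5.77% and 7.95% of the genes tested, with a median change of 0.31. Of these 2 insulin libraries, replicate 1 is among the 4 that stand apart, and no PBS library at 4 hpi is.

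Markers of other cell types were read at the same time, since a whole embryo can change in make-up. At 4 hpi 4 of 7 exocrine pancreas genes were higher and 0 lower, with a summed level of 1464 to 2343 CPM in insulin and 709 to 1119 CPM in PBS libraries. Of the proliferation genes 4 of 10 rows were higher and 2 lower, with sums of 503 to 879 CPM in insulin and 492 to 521 CPM in PBS. Among 8 neutrophil and macrophage genes 1 was higher and 1 lower, with sums of 118 to 133 CPM in insulin and 193 to 303 CPM in PBS. The median change of these 8 genes was 0.26, so the sums and the median went in opposite directions. Muscle had 1 of 8 genes higher and 1 lower (39261 to 56606 CPM in insulin and 34596 to 38703 CPM in PBS), and liver had 0 of 7 higher and 1 lower (3339 to 6440 CPM in insulin and 3355 to 3504 CPM in PBS). No neuron (0 of 7), photoreceptor and lens (0 of 8) or erythroid gene (0 of 9 rows) passed in either direction, and no marker row was at 0 in a whole group. Without the 4 libraries that stand apart, 6 exocrine pancreas, 4 proliferation, 3 photoreceptor and lens, 3 muscle, 1 liver and 1 neutrophil and macrophage gene were higher at 4 hpi, and 2 proliferation genes and 1 each of the neuron, erythroid, liver, muscle, and neutrophil and macrophage genes were lower. Of all tested genes 14% were higher and 14.6% lower with 16 libraries, and 17.4% and 17.8% with 12. Median changes with 16 libraries (12 in brackets) were 1.12 (1.11) for exocrine pancreas and 0.49 (0.19) for proliferation. They were 0.37 (0.21) for muscle, 0.36 (-0.22) for erythroid and 0.27 (0.04) for liver genes. For photoreceptor and lens genes they were 0.16 (0.30), and for neuron genes -0.17 (-0.09). The part of these cell types in the splicing factor result was not tested.

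Zebrafish carry many splicing factors as paired copies, and the paired values allowed a comparison within each library, free of scaling between libraries. The log2 ratio of the a copy over the b copy was set against treatment with an exact two-sided permutation test for 8 pairs at each time, 16 tests in all, chosen after values had been seen. The genes hnrnpa0a, which stands on 2 rows, and hnrnpa0b were not among the 8 pairs. The smallest p that 4 against 4 libraries allow is 0.0286. At 4 hpi the ratio of u2af2a over u2af2b was -1.46 to -0.92 in insulin and -1.98 to -1.74 in PBS, a difference of 0.57. The ratio of srsf6a over srsf6b was -0.30 to 0.14 in insulin and -0.70 to -0.44 in PBS, a difference of 0.46. For srsf5a over srsf5b it was 0.20 to 0.48 in insulin and 0.10 to 0.19 in PBS, a difference of 0.21. These 3 pairs did not overlap between groups (exact p = 0.0286 each, adjusted p = 0.114). Of all tested genes taken singly, 16.3% lay wholly higher and 17.2% wholly lower in insulin at 4 hpi. No such share was counted for ratios of other gene pairs, so whether 3 of 8 is unusual was not tested. With that smallest p, adjustment over 16 tests could hardly reach 0.05, so the adjusted p says little about these pairs. At 0.5 hpi the ratio of hnrnpua over hnrnpub was the only one without overlap, at -2.02 to -1.81 in insulin and -1.79 to -1.69 in PBS (exact p = 0.0286, adjusted p = 0.114). For srsf1, srsf2 and srsf3, whose copies had both passed, the differences in the ratio at 4 hpi were -0.11, -0.21 and -0.21. In these pairs the groups overlapped (exact p = 0.4, 0.171 and 0.0857). The ratio of prpf4ba over prpf4bb was -0.29 to 0.08 in insulin and 0.07 to 0.40 in PBS at 4 hpi. Its difference was -0.38, with overlap (exact p = 0.0571). For hnrnpua over hnrnpub the difference at 4 hpi was 0.07 (exact p = 0.686).

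**Figure D4:**
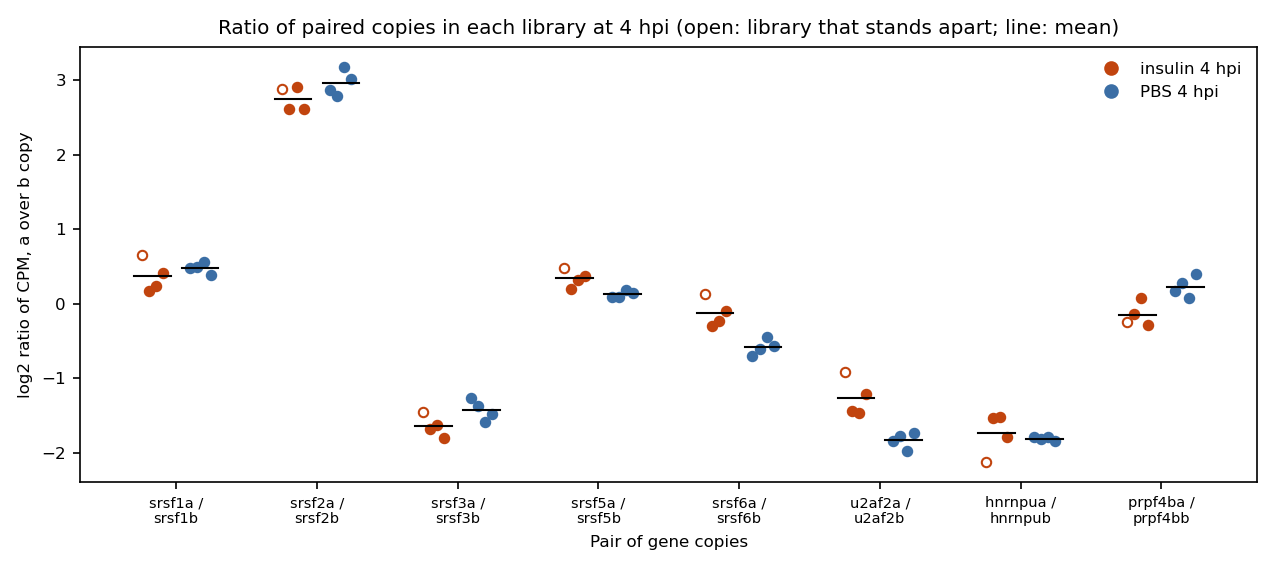
Log2 ratio of CPM of the a copy over the b copy for 8 pairs of splicing factor genes in each library at 4 hpi, insulin left of PBS within a pair, with means as lines and the library that stands apart as an open point. The insulin points lie above the PBS points for srsf5, srsf6 and u2af2, and overlap them for the other pairs.

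At 0.5 hpi the comparison asks what differs shortly after the injection. With all 16 libraries, 0 splicing factor genes were higher and 0 lower by edgeR, against 0.166% and 0.222% of tested genes. At an unadjusted p under 0.05, 20 were higher and 0 lower, against 6.42% and 6.55% of tested genes. The unadjusted count fell to 4 higher and 0 lower without PBS replicate 4 (5.09% and 6.14% of the genes tested there). It fell to 8 higher and 0 lower without insulin replicate 4 (4.17% and 6.36%). It was 32 higher and 2 lower without PBS replicate 1, against 2162 higher and 2312 lower of the 21880 genes tested there. Without PBS replicate 1, 3 genes were higher and 0 lower at an adjusted p under 0.05, against 1.92% and 2.59% of the genes tested there. DESeq2 called 1 gene higher, srsf4 (adjusted p = 0.0294), and 0 lower, against 0.665% and 1.55% of tested genes. By limma voom 0 were higher and 0 lower, against 0.097% and 0.0831%. The change was above 0 for 67 of the 72, with a median of 0.20 beside 0.02 over all tested genes, and the median was 0.11 without PBS replicate 4. In 8 genes all insulin libraries lay above all PBS libraries, and in 0 below, against 3.2% and 2.91% of tested genes. These were srsf3b, srsf4, srsf5b, tra2b, prpf18, hnrnph1l, hnrnpub and hnrnpa0l (ENSDARG00000076380), named after their values were seen. srsf4 measured 156, 167, 162 and 155 CPM in insulin libraries, against 134, 135, 131 and 111 CPM in PBS libraries (change 0.33, SE 0.09, adjusted p = 0.118).

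This result changed when the libraries that stand apart were left out, which are 2 of the 4 insulin libraries and 1 of the 4 PBS libraries at 0.5 hpi. It did not change when all 16 were kept and a term for the library split was added. That fit called 0 splicing factor genes higher and 0 lower at 0.5 hpi, with a median change of 0.19. Of the 21650 genes tested there, 214 were higher and 279 lower. Without the 4 libraries that stand apart, 24 splicing factor genes were higher and 1 lower at 0.5 hpi, against 6.38% and 6.54% of the genes tested there, with a median change of 0.29. This fit compares 2 insulin with 3 PBS libraries, of which 2 are the near-identical ones, and with those summed the counts were 22 higher and 1 lower, against 5.38% and 5.33%. By family, 8 of 19 hnrnp, 4 of 14 prpf, 4 of 7 sf3b, 3 of 14 srsf, 3 of 10 snrp and 2 of 3 sf3a genes were higher. sf3b4 had the smallest p, with 38.3, 23.2, 43.8 and 41.6 CPM in insulin replicates 1 to 4, against 45.5, 21.8, 24.7 and 16.4 CPM in PBS replicates 1 to 4. Its change was 1.01 (SE 0.15, adjusted p = 4.24e-05) with 12 libraries and 0.43 with all 16 (adjusted p = 0.489). The highest PBS value was that of replicate 1 and the lowest insulin value that of replicate 2, both left out of the smaller fit. hnrnpab and hnrnpa0b were at 0.77 and 0.74 with 12 libraries, and at 0.39 each with 16. No cell type marker passed at 0.5 hpi with 16 libraries. With 12, 3 proliferation genes and 1 each of the exocrine pancreas, liver and muscle genes were higher, and 2 proliferation, 2 erythroid, 1 liver and 1 muscle gene were lower, and their part in the result was not tested.

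The gene that was lower at 0.5 hpi without those libraries was srsf1b, which was higher at 4 hpi. It measured 109.6, 105, 77.4 and 81.8 CPM in insulin replicates 1 to 4 at 0.5 hpi, against 84.8, 106, 106 and 98.4 CPM in PBS replicates 1 to 4. Insulin replicates 3 and 4 were below every PBS library, and insulin replicates 1 and 2, which stand apart, were level with or above the PBS libraries. The change was -0.40 (SE 0.09, adjusted p = 0.00332) with 12 libraries and -0.08 (adjusted p = 0.831) with 16. With 12 libraries, 14 splicing factor genes passed as higher at both times, 10 at 0.5 hpi alone and 24 at 4 hpi alone. Of all genes tested there, 6.38% were higher at 0.5 hpi and 17.4% at 4 hpi. The overlap between the times over all genes was not counted, so whether that of the splicing factor genes is unusual was not tested. No lane was named for 3 insulin and 2 PBS libraries at 0.5 hpi, among them insulin replicate 2 and PBS replicate 1, which stand apart. In a fit of these alone 0 of the 72 genes were higher or lower, as were 0 of all 22474 genes tested there. The median change of the 72 was then 0.19.

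**Figure D5:**
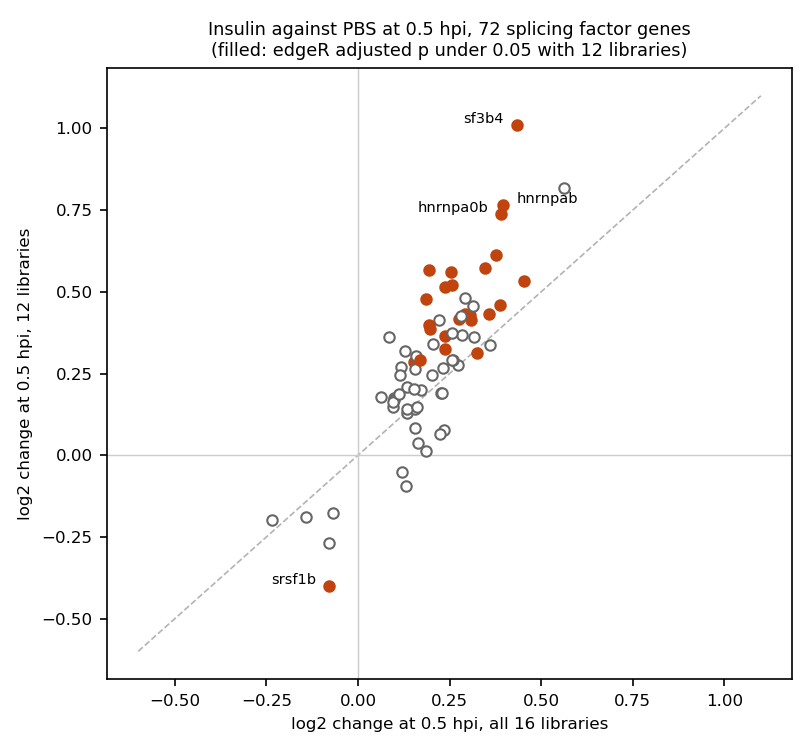
Log2 change in insulin against PBS at 0.5 hpi of each of the 72 splicing factor genes, with all 16 libraries (horizontal axis) and with the 12 that do not stand apart (vertical axis), with genes that passed with 12 libraries filled and equal values on the dashed line. Of the 25 filled points, 24 lie above 0 and srsf1b lies below, at -0.40.

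Whether the insulin effect itself differed between the times was tested as an interaction in the model of 16 libraries. In 4 splicing factor genes the effect was higher at 4 than at 0.5 hpi, and in 0 lower, against 3.83% and 5.76% of tested genes, so the share of members was near the background. They were srsf1b (difference 0.79, SE 0.16, adjusted p = 0.00375), hnrnpm (0.64, SE 0.14, adjusted p = 0.00589), srsf1a (0.51, SE 0.15, adjusted p = 0.0407) and srsf2b (0.64, SE 0.20, adjusted p = 0.045). hnrnpm at 0.5 hpi had 236, 228, 213 and 227 CPM in insulin, against 222, 204, 217 and 169 CPM in PBS, a change of 0.16, beside 0.79 at 4 hpi. srsf1b and hnrnpm passed whichever of the 16 libraries was left out, srsf2b in 6 of 16 cases and srsf1a in 4 of 16, and the near-identical libraries summed left srsf1b and hnrnpm. Without the 4 libraries that stand apart 6 genes were higher and 2 lower, against 1317 and 1563 of the 22003 genes tested there, and srsf2b did not pass (adjusted p = 0.0573). With 1 of the 16 libraries left out, the count higher was 2 without insulin replicate 4 or PBS replicates 1, 2 or 4 at 4 hpi. It was also 2 without insulin replicate 2 or PBS replicates 2 or 3 at 0.5 hpi. Over all tested genes 556 to 735 were higher in these fits, and 830 in the fit of 16 libraries. Without PBS replicate 1 at 0.5 hpi 1 splicing factor gene was lower, against 1123 of the 21880 genes tested there. Over the 72 genes the median difference was 0.09 beside 0.01 over all tested genes. Scaling by library totals moved both medians, to -0.03 for the 72 genes and -0.10 for all genes, and without the 4 libraries that stand apart the median of the 72 was -0.04. With each library left out in turn it lay between 0.05 (without PBS replicate 1 at 0.5 hpi) and 0.20 (without PBS replicate 4 at 0.5 hpi).

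The comparisons over time use the same libraries as those above. In PBS embryos 1 splicing factor gene was higher and 4 were lower at 4 than at 0.5 hpi, against 7.96% and 5.65% of tested genes. The share of members that was lower was thus near the background, and the median change was -0.17. At an unadjusted p under 0.05 the counts were 2 higher and 24 lower, against 15.5% and 13.8% of tested genes. The 4 lower genes were hnrnpm (-0.38, adjusted p = 0.0119), srsf9 (-0.45, adjusted p = 0.0213), sf3b1 (-0.29, adjusted p = 0.0334) and hnrnpc (-0.35, adjusted p = 0.0376). hnrnpc (chromosome 2), a protein that binds uridine tracts of pre-mRNA, had 49.3, 49.7, 46.7 and 44.5 CPM in PBS at 4 hpi, against 65.5, 61.2, 60.8 and 55.6 CPM in PBS at 0.5 hpi. These libraries did not overlap. The higher gene was the prpf3 row ENSDARG00000086425 (chromosome 16), with 15.8, 14.6, 17.4 and 14.9 CPM in PBS at 4 hpi, against 13.9, 12.2, 10.9 and 9.98 CPM in PBS at 0.5 hpi (change 0.41, adjusted p = 0.0378).

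This comparison over time was sensitive to its libraries. Only hnrnpm passed whichever library was left out. In PBS replicate 4 at 0.5 hpi 7 of the 72 genes lay above their means over all libraries, insulin libraries included. The count was 53, 30 and 27 in PBS replicates 1 to 3 at 0.5 hpi. It was 10, 3, 11 and 10 in PBS replicates 1 to 4 at 4 hpi. Without PBS replicate 4 at 0.5 hpi 21 genes were lower, against 8.34% of the genes tested there. Without PBS replicate 2 at 4 hpi 1 gene was lower, against 645 of the 21861 genes tested there. Without PBS replicates 2 or 3 at 0.5 hpi, or PBS replicates 1, 3 or 4 at 4 hpi, 2 were lower. Over all tested genes 718 to 896 were lower in those fits, and 1223 in the fit of 16 libraries. Without any 1 of these 7 libraries no splicing factor gene was higher, against 1059 to 2402 of all tested genes. Without the 4 libraries that stand apart 1 gene was higher and 14 were lower, against 10.4% and 9.12% of the genes tested. With the near-identical libraries summed 0 were higher and 2, hnrnpm and srsf9, lower, against 5.24% and 3.54% of the genes tested. The median change of the 72 genes was -0.09 without the 4 libraries, -0.09 without PBS replicate 1 at 0.5 hpi alone, and -0.08 with scaling by library totals, where the median over all genes moved to 0.07.

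In insulin embryos 1 splicing factor gene was higher and 2 were lower at 4 than at 0.5 hpi, against 1.17% and 1.75% of tested genes. Both shares were thus near the background, and the median change was -0.05 (-0.16 without the 4 libraries that stand apart). srsf1b averaged 136 ± 7.69 CPM in insulin at 4 hpi and 93.5 ± 16.3 CPM in insulin at 0.5 hpi (SD, n = 4 each; change 0.54, SE 0.11, adjusted p = 0.0102), and no libraries overlapped. srsf4 (-0.37, adjusted p = 0.0358) and hnrnpa0l (ENSDARG00000076380, chromosome 20; -0.58, adjusted p = 0.0319) were the lower genes. This hnrnpa0l row had 9.52, 8.02, 11.1 and 10.2 CPM in insulin at 4 hpi, against 14.4, 13.9, 15.3 and 14.4 CPM in insulin at 0.5 hpi. Of these 3 genes only srsf1b passed with each library left out in turn, and in a fit of the insulin libraries alone none passed. The hnrnpa0l row did not pass without the 4 libraries that stand apart (adjusted p = 0.0540).

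Other genes of splicing were read from 5 lists that lie outside the symbol rule, with 220 symbols and 178 tested genes. At 4 hpi 57 were higher in insulin and 12 lower, with a median change of 0.21. Of all tested genes 14% were higher and 14.6% lower at 4 hpi, which is the background for each list below. At 0.5 hpi 0 passed in either direction with 16 libraries, against 0.166% and 0.222% of tested genes. With 12 libraries 40 were higher and 3 lower at 0.5 hpi, against 6.38% and 6.54% of the genes tested there. Among 68 other spliceosome proteins 18 were higher and 0 lower at 4 hpi, led by puf60b (0.59), a partner of U2AF at the polypyrimidine tract, luc7l3 (0.48), of the U1 snRNP, and the prolyl isomerase gene ppil1 (0.75). In the list drawn up for kinases and phosphatases of SR proteins, 5 of 11 genes were higher and 1, hipk2, lower. A place on this list does not mean that a gene acts on SR proteins. clk4a, of the CLK kinases that phosphorylate SR proteins in the nucleus, changed by 1.87 (SE 0.11, adjusted p = 6.39e-10), srpk1a, of the cytoplasmic SR protein kinases, by 0.52 and clk2a by 0.61, while hipk2 changed by -0.80.

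The exon junction and export list had 9 of 24 genes higher and 0 lower, among them the export receptor gene nxf1 (0.59) and the THO complex genes thoc5 (0.62) and thoc3 (0.90). The snRNP assembly list had 5 of 15 higher and 1 lower, with gemin5 (0.85) and gemin8 (0.81) of the SMN complex and the snRNA export adaptor gene phax (0.89) higher, and riok1 (-0.61) lower. Of the 12 lower genes 10 were among the tissue-specific and other regulators of splicing outside the rule, a list of 60 in which 20 were higher. The share of this list that was lower was near the 14.6% of all tested genes. rbm5 (1.65), tial1 (1.12) and ilf3a (0.70) were higher, and qkib (-0.71), ptbp1b (-0.43) and mbnl1 (-0.59), of the Quaking, PTB and Muscleblind families, were lower.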

How the data were processed

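The deposited files were 1 table of raw counts per library, whole reads per Ensembl gene, which the authors made on the Zv9 build, per the submitters' processing notes. The last line of each table, with size factors, was left out. Aligner, counting tool and strand setting: not given in the sources used here. Genes, symbols and chromosomes are those of the tables.

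Genes were kept with edgeR's filterByExpr, which left 21650, and scaled with TMM factors. A quasi-likelihood model (glmQLFit, robust, and glmQLFTest) was fitted to all 16 libraries with 4 group levels (12 residual degrees of freedom), and two-sided p-values were Benjamini-Hochberg adjusted over all tested genes, with a threshold of 0.05. Levels are CPM over TMM-scaled library sizes. SE was derived from the test, as the absolute log2 change over the square root of the quasi-likelihood F statistic. Work was done with edgeR 4.0.16, DESeq2 1.42.0 and limma 3.58.1 in R 4.3.3, and with scipy 1.17.1 in Python 3.11.15, and the fit was tested on simulated data. Copies were compared by exact permutation of their log2 ratio.

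The members, lists, tests and alternatives were chosen with earlier results of these data known. Genes were named as those that passed, up to 8 per comparison and direction by smallest p, for each family the smallest p at 4 hpi and the highest mean CPM, their a or b copies, and up to 3 per list, comparison and direction. Others were named after their values were seen. Alternatives were other scalings, filters, tests and samples. Replicate numbers are not stated to pair libraries, and the main fit did not use them. Promoter and protein sequences were not used here.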

Additional observations from a re-analysis of the deposited data

Results flagged for a closer look

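In 4 splicing factor genes the insulin effect was higher at 4 than at 0.5 hpi by the interaction test, and in 0 lower. Of all tested genes 3.83% were higher and 5.76% lower, so the share of members was near the background. The differences on the log2 scale were 0.79 for srsf1b, 0.64 for hnrnpm, 0.51 for srsf1a and 0.64 for srsf2b. With each of the 16 libraries left out in turn, srsf1b and hnrnpm always passed, srsf2b in 6 cases and srsf1a in 4.

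Among 100 sets of 4 libraries (25 named genes in 4 groups), 5 held a library far from the other 3 by Dixon's criterion, and chance alone flags about 1 in 20. PBS replicate 4 at 0.5 hpi was the low library for srsf3b (164 CPM), srsf4 (111 CPM) and u2af2b (111 CPM). PBS replicate 1 at 0.5 hpi was the high library for prpf8 (233 CPM). PBS replicate 1 at 4 hpi was the low library for sf3a2 (19.4 CPM).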

How the results depend on the processing

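Without the 4 libraries that stand apart, the counts of splicing factor genes became 24 higher and 1 lower at 0.5 hpi, and 6 higher and 2 lower for the difference of the insulin effects. They became 14 lower over time in PBS and 2 higher over time in insulin. Of the 22003 genes tested there, 6.38% were higher and 6.54% lower at 0.5 hpi, and 1317 higher and 1563 lower for the difference. Over time 9.12% were lower in PBS and 494 genes higher in insulin. The median changes of the splicing factor genes became -0.0448 for the difference (0.09 with 16 libraries) and -0.16 over time in insulin (-0.05 with 16). Of the other splicing genes 40 were higher and 3 lower at 0.5 hpi. With the near-identical libraries also summed, 22 splicing factor genes were higher and 1 lower at 0.5 hpi, and 3 higher and 2 lower for the difference. There were 8 lower over time in PBS and 2 higher over time in insulin. The medians were -0.0827 for the difference, -0.16 over time in insulin, -0.0560 over time in PBS and 0.34 at 0.5 hpi. Of the other splicing genes 35 were higher and 2 lower at 0.5 hpi. Of the 22036 genes tested there, 5.38% were higher and 5.33% lower at 0.5 hpi, and 1026 higher and 1273 lower for the difference. Over time 1257 were lower in PBS and 443 higher in insulin. The cause was not tested.

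Summing the near-identical libraries alone gave 2 higher for the difference, and 0 higher and 2 lower over time in PBS. Of the 21929 genes tested there, 615 were higher for the difference, and 1150 higher and 776 lower over time in PBS. A term for the library split gave 7 higher and 1 lower for the difference, 11 lower over time in PBS and 2 higher over time in insulin. It gave 4 other splicing genes higher at 0.5 hpi. Of all 21650 tested genes, that fit called 1452 higher and 1996 lower for the difference. It called 1408 lower over time in PBS, 560 higher over time in insulin and 214 higher at 0.5 hpi. Library totals gave 2 higher and 1 lower with a median of -0.0286 for the difference and 2 lower over time in PBS. They gave 2 other splicing genes higher at 0.5 hpi. Of all 21650 tested genes, 501 were then higher and 1692 lower for the difference. There were 732 lower over time in PBS and 58 higher at 0.5 hpi. DESeq2 gave 1 higher at 0.5 hpi, 7 higher for the difference, 12 lower over time in PBS and 2 higher over time in insulin. It gave 5 other splicing genes higher at 0.5 hpi. Of all 21650 tested genes, DESeq2 called 144 higher at 0.5 hpi and 1045 higher for the difference. It called 1382 lower over time in PBS and 414 higher over time in insulin. Over time in PBS, limma voom gave 7 lower, against 1189 of 21650 tested genes. No filter on low counts gave 0 higher over time in PBS and 1 lower over time in insulin. Of the 28517 genes tested there, 1610 were higher over time in PBS and 277 lower over time in insulin. At least 10 CPM in 4 libraries gave 7 lower over time in PBS and 1 other splicing gene higher at 0.5 hpi. Of the 13520 genes tested there, 1046 were lower over time in PBS and 43 higher at 0.5 hpi. Fits of the compared groups alone gave 0 higher over time in PBS, and 0 higher and 0 lower over time in insulin. Over all genes 1722 of 21094 were higher over time in PBS. Of 20778 genes 114 were higher and 152 lower over time in insulin. Lane 5 alone, with 5 libraries, gave 12 higher at 4 hpi, and 20 higher and 5 lower among the other splicing genes. Of all genes tested there 5.77% were higher and 7.95% lower. At 4 hpi the other alternatives left the count within 1.5 times of 31.

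Deviations of libraries with the same replicate number had correlations of -0.16 to 0.49, not all above 0.1, against -0.34 to 0.27 for different numbers. The highest was between PBS replicate 1 at 0.5 hpi and insulin replicate 1 at 4 hpi, both among the 4 libraries that stand apart. Whether the numbers mark a shared clutch or day is not stated, and these values do not settle it. With the replicate number as a replicate block, 32 genes were higher at 4 hpi and 7 lower over time in PBS. Of all 21650 tested genes, 3115 were then higher at 4 hpi and 1274 lower over time in PBS.

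Leaving out each library in turn gave 0 to 3 higher at 0.5 hpi, 21 to 32 higher and 0 to 1 lower (prpf4ba, without insulin replicate 3) at 4 hpi, 2 to 6 higher and 0 to 1 lower for the difference with a median of 0.0544 to 0.20, 0 to 1 higher and 1 to 21 lower over time in PBS, and 0 to 1 lower over time in insulin. Other splicing genes higher at 0.5 hpi ranged from 0 to 9. Over all tested genes those fits gave 5 to 420 higher at 0.5 hpi, and 2028 to 2867 higher and 2440 to 3148 lower at 4 hpi. For the difference they gave 556 to 1219 higher and 895 to 1721 lower. Over time they gave 1059 to 2402 higher and 645 to 1824 lower in PBS, and 189 to 319 lower in insulin. At 4 hpi u2af2b, at 0.02, was -0.0496 with library totals, -0.00438 with at least 10 CPM, -0.00210 without the 4 libraries and -0.00201 with the pair also summed, and -0.00600 to 0.0404 with each library left out in turn (-0.00333 without PBS replicate 2). The hnrnpa0l row ENSDARG00000076380, at 0.07, was -0.0189 to 0.158 with each library left out in turn.

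With 6535173 to 9628705 reads per library and 4 libraries a group, single-gene standard errors at 4 hpi were 0.08 to 0.26, and the smallest change that passed was 0.30.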
